A study of Pyrus ussuriensis with 15 samples.

Results

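Intronless gene models are models whose coding sequence lies in 1 unbroken block of the genome. They were taken from the deposited table as the models with an identifier that starts with Pbr and a span on the scaffold equal to the stated length. This rule gave 12310 models, which are 28.8% of the 42812 Pbr models and belong to 44681 models in all. The other 30502 Pbr models span more of the scaffold than their length and are called multi-block here. Their span exceeded their length by a median of 1272 bases, the smallest excess was 20 bases, and 4 models exceeded it by at most 30 bases. All Pbr lengths are multiples of 3, so they are coding lengths without untranslated regions.

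The RNA came from *Pyrus ussuriensis*, an Asian pear, during the formation of adventitious roots, which are roots that arise from shoot tissue. After 25 days of subculture, buds were rooted in the presence of the auxin indole-3-butyric acid at 0.5 mg/L, on a medium that also held 30.0 g/L sucrose. Libraries were labelled day 0, 3, 6, 9 or 12, with 3 libraries per day, and every library, day 0 included, carries the tissue label adventitious roots, while the series title counts 4 stages. No untreated time course was analysed here, and reads were placed on the genome of another pear species, *Pyrus bretschneideri*. The labels give the same medium for every day. The identifiers carry no gene names, so the tissue label could not be checked against marker genes and no role is given to any model below. The labels number the libraries but name no separate cultures for them, so the spread behind the p-values is that of these libraries and may be technical. Total counts per library lay between 11953240 (day 9 replicate 2) and 17878524 (day 12 replicate 3).

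In plants, genes without introns include members of families such as histones, small auxin-induced genes, F-box proteins and pentatricopeptide repeat proteins. Open reading frames of transposable elements and copies made by reverse transcription of a spliced transcript also lack introns, and gene predictors report both as gene models.

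Short models were mostly intronless and long ones rarely. Intronless models had a median length of 519 bases, with quartiles at 309 and 1062 and extremes at 150 and 6663, against a median of 1095 bases for multi-block models. They made up 63.6% of Pbr models of up to 300 bases (2945 models) and 43.7% of those above 300 and up to 600 bases (3972 models). Further bands closed at 900, 1200, 1800 and 2400 bases, with each upper bound included, and a band is named below by its bounds. The share was 24.8% at 600 to 900 bases, 18.3% at 900 to 1200, 16.9% at 1200 to 1800, 18.6% at 1800 to 2400 and 11.8% above 2400 bases. Plus and minus strands were used about equally, with 50.4% of intronless models on the plus strand.

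A smaller share of intronless than of multi-block models was detected in each length band. In all, 3720 intronless models (30.2%) had no count in any of the 15 libraries, against 11.1% of multi-block models, and 5342 (43.4%) passed the filter on low counts and were tested, against 72.4%. The remaining 3248 intronless models had counts but too few to test. At up to 300 bases, 49.9% of intronless and 37.3% of multi-block models had no count. At 900 to 1200 bases the shares were 17.1% and 8.07%, and above 2400 bases they were 14.4% and 1.93%. The distance between the kinds thus did not close as length grew: 20.5% of intronless models were tested in the shortest band and 69.7% in the longest, against 37.98% and 89.7% of multi-block models. A count of 0 says only that no read was assigned at this depth. How reads that fit several places were treated is not given in the sources used here, and in bulk RNA fewer cells of a type and less RNA per cell cannot be told apart.

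**Figure D1:**
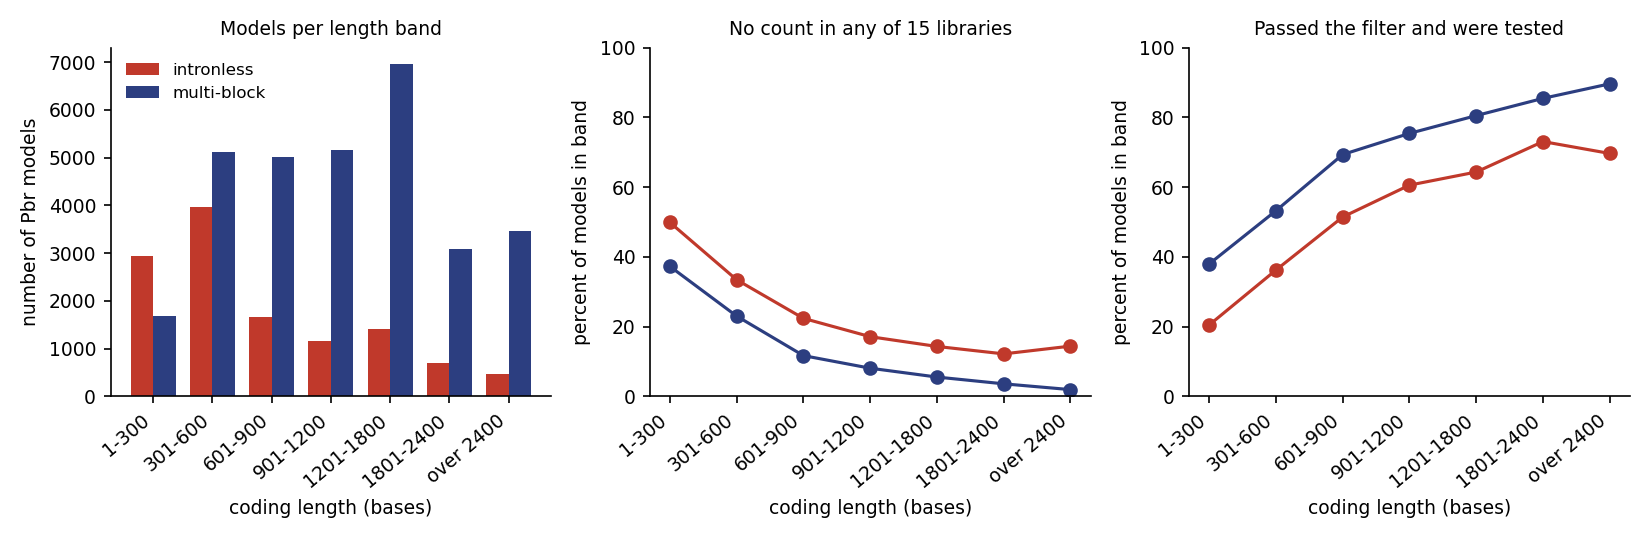
Number of Pbr gene models per coding length band (left, bars), percent with no count in any of 15 libraries (middle) and percent that passed the filter on low counts (right), for intronless (red) and multi-block (blue) models. In each of the 7 bands the intronless line lies above the multi-block line in the middle plot and below it in the right plot.

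Levels per length were lower as well. The median FPKM (the authors' unit, fragments scaled by coding length and by the library total) over all intronless models, averaged over 15 libraries, was 0.524 at 600 to 900 bases, against 4.62 for multi-block models. At 1200 to 1800 bases the medians were 1.26 and 5.46, and above 2400 bases they were 0.969 and 5.52. Among models with at least 1 count the order was unchanged in each of the 7 bands, with medians from 0.700 at up to 300 bases to 2.95 at 900 to 1200 bases for intronless models and from 4.22 to 7.23 for multi-block models. Of the 100 models with the highest mean FPKM 23 were intronless, a kind that makes up 12310 of all 44681 models.

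The median FPKM of the longest intronless models was lower on day 9. Above 2400 bases it was 1.14 ± 0.0701 on day 0 and 0.559 ± 0.0258 on day 9 (SD, n = 3 libraries each), and the multi-block median of that band went from 6.18 ± 0.169 to 3.36 ± 0.0484. At 600 to 900 bases the intronless median was 0.523 ± 0.0266 on day 0 and 0.522 ± 0.0211 on day 9, a difference smaller than the spread. These medians are over all 1654 models of the band, counted or not. Among its 851 tested models the median log2 change from day 0 to day 9 was 0.43, so the band was not unchanged. Both kinds of model thus had lower medians at the long end on that day.

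Intronless models took a larger share of all counts on day 9 than on any other day. The share was 12.1 ± 0.287% on day 0, 12.3 ± 0.423% on day 3, 12.9 ± 0.688% on day 6, 15.2 ± 0.412% on day 9 and 12.0 ± 0.282% on day 12 (SD, n = 3 libraries). The day 9 libraries held 14.9%, 15.7% and 15.2%, and the highest library of any other day, on day 6, held 13.7%, so day 9 did not overlap the rest. The share was higher on day 9 in each band of up to 1200 bases, and so was that of multi-block models. Intronless models of 300 to 600 bases went from 2.87 ± 0.127% to 4.16 ± 0.113% of counts between day 0 and day 9. Multi-block models of that band went from 10.3 ± 0.320% to 13.1 ± 0.216%. Intronless models above 2400 bases went the other way, from 0.738 ± 0.0331% to 0.512 ± 0.0215%. So did multi-block models of that length, from 16.1 ± 0.661% to 9.91 ± 0.210%.

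**Figure D2:**
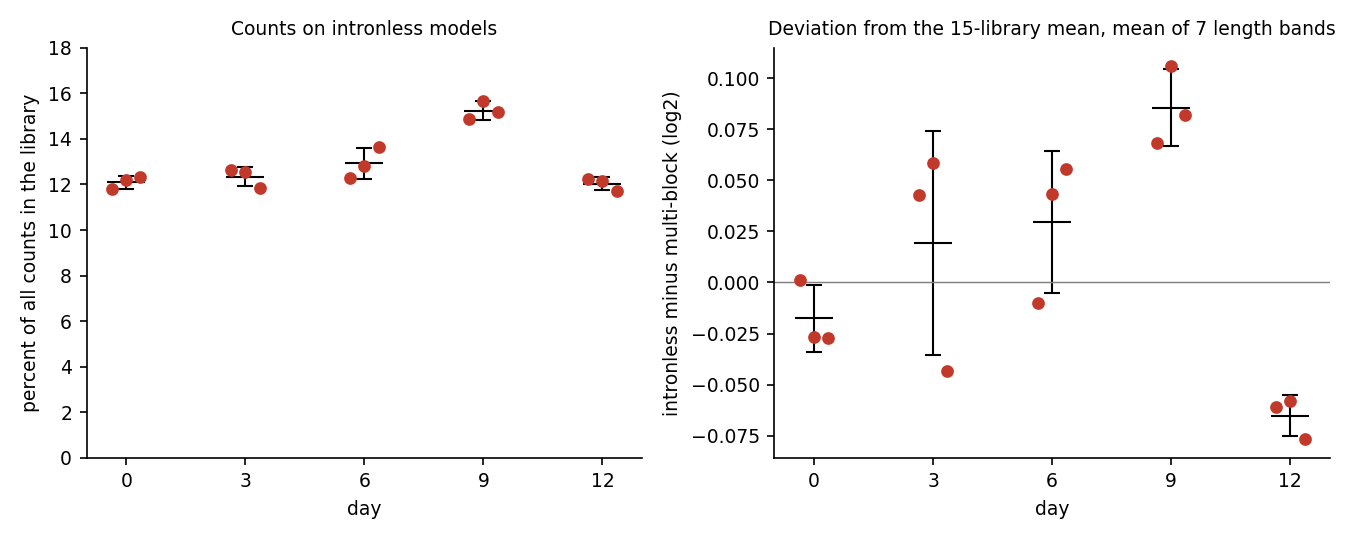
Left: percent of each library's counts on intronless models by day. Right: median log2 deviation from the 15-library mean of each model, intronless minus multi-block, averaged over 7 length bands. Points are libraries and bars are mean and SD of 3. The day 9 libraries, at 14.9% to 15.7%, lie above all others on the left, and day 12 lies lowest on the right.

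Counts were tested with edgeR's quasi-likelihood test over all 15 libraries, with Benjamini-Hochberg adjustment over the 29134 models tested and calls at an adjusted p under 0.05. Day 0 is shared by 4 of the comparisons, so their counts are not independent of one another. At day 3, 270 intronless models were higher than at day 0 (5.05%) and 253 were lower (4.74%), where 4.47% of all models tested were called higher and 4.9% lower. At day 6, 422 were higher (7.90%) and 225 lower (4.21%), against 5.3% and 4.26% of all models. The day 3 shares were thus near the background, and at day 6 the share called higher was above it. Both counts moved with the libraries fitted. The day 3 total of 523 fell whichever of the 6 libraries of days 0 and 3 was omitted. Dropping replicates 1, 2 and 3 of day 0 in turn gave 473, 196 and 252 calls. For day 3 the same omissions gave 302, 185 and 329. The part of the smaller group in these falls was not tested. The day 6 total of 647 moved both ways, down to 284 when day 0 replicate 2 was dropped and up to 1013 when day 6 replicate 1 was. It also rose when day 6 replicate 2 was omitted, and fell for the remaining omissions. A fit of only days 0 and 6 called 5.

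Of the days set against day 0, day 9 had the most calls. It had 2626 of 5342 tested intronless models called, near the 14484 of all 29134 models tested. Intronless models differed from all models in the split by direction. Against day 0, 1588 intronless models were higher (29.7%) and 1038 lower (19.4%), whereas 23% of all models tested were called higher and 26.7% lower. Against day 6, 1151 were higher (21.5%) and 812 lower (15.2%), beside 17.8% and 21.8% of all models. From day 9 to day 12 the split turned over, with 1007 higher (18.9%) and 1579 lower (29.6%), beside 26.4% and 22.5% of all models. Day 12 against day 0 gave 594 higher (11.1%) and 667 lower (12.5%), close to the background of 11.6% and 11%.

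Length went with the day 9 pattern in both kinds of model. At 300 to 600 bases 564 of 1439 tested intronless models were higher at day 9 than at day 0 and 153 lower, whereas above 2400 bases 23 of 324 were higher and 163 lower. In the same bands 1113 of 2721 multi-block models were higher and 266 lower, and 143 of 3110 higher and 1968 lower. In both kinds, short models were called higher and long models lower far more often than the reverse. When the trend of each library with coding length was removed, 1219 intronless models were higher at day 9 than at day 0 and 1032 lower. Against day 6 the removal turned the split, from 58.6% higher among the calls to 46.1%, with 642 higher and 751 lower. Shares of all models called after the removal are not given here. These counts are therefore not read as particular to intronless models. What gave day 9 its length trend was not tested.

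Within length bands a smaller difference between the kinds remained. The median log2 change of intronless models minus that of multi-block models, averaged over the 7 bands, was 0.11 for day 9 against day 0, and it was above 0 in 7 of 7 bands, from 0.07 at 1800 to 2400 bases to 0.17 at 600 to 900. The 3 day 9 libraries gave 0.10, 0.13 and 0.12 when each was set against the mean of day 0, an SD of 0.01. With the length trend removed they gave 0.08, 0.11 and 0.10. For day 12 against day 9 the same difference was -0.17 and below 0 in 7 of 7 bands, with an SD of 0.02 over the day 12 libraries. At day 12 against day 0 it was -0.06, with 0 of 7 bands above 0. At day 3 and day 6 it was 0.02 and 0.03, no larger than the SD of 0.03 between libraries at either day. Yet it was above 0 in 5 of 7 bands at day 3 and in 7 of 7 at day 6. The bands share the same libraries, so agreement between bands is not independent support. For day 9 against day 6 the difference was 0.05 and above 0 in 6 of 7 bands, with an SD of 0.03, and -0.03 without the filter on low counts. No test was made of these medians, since models are not replicates.

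Expression level differed between the kinds and moved with the day 9 value. Tested intronless models had a median level of 2.43 log2 CPM (counts scaled by the library total) against 3.66 for multi-block models, and 35.8% of them fell in the lowest of 4 equal classes of level among all tested models. From the lowest to the highest class, the day 9 minus day 0 difference between the kinds was 0.10, 0.11, 0.18 and 0.22. Within length band and class together it averaged 0.15, and within these strata the day 12 minus day 0 difference was -0.04. Without the filter on low counts 3248 further intronless models with few counts entered the medians, and the day 9 value was 0.02.

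**Figure D3:**
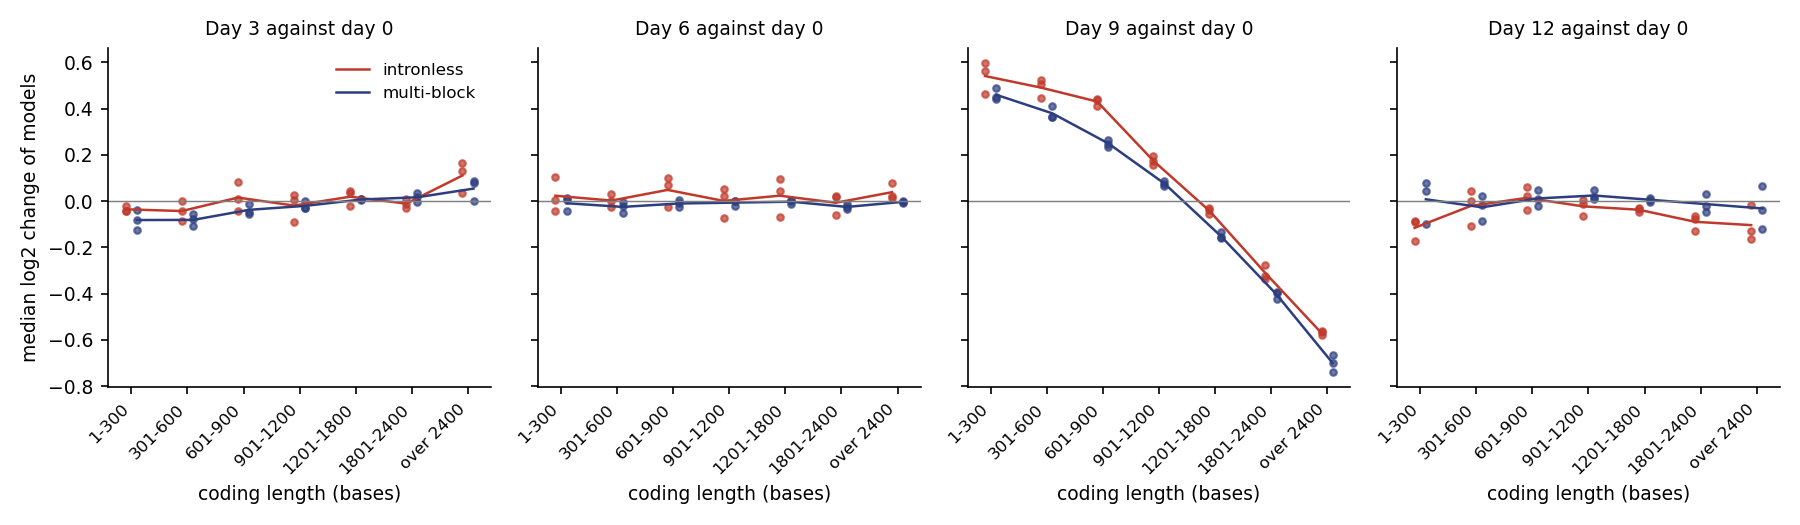
Median log2 change against day 0 of tested intronless (red) and multi-block (blue) models by coding length band. Points are the 3 libraries of the later day, each against the mean of day 0, and lines join their means. At day 9 both lines fall from short to long models and the red line lies above the blue one in each of the 7 bands.

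Libraries of a day scattered more for intronless models. The median biological coefficient of variation, edgeR's estimate of the spread between libraries beyond counting error, was 22.5% for intronless and 17.1% for multi-block models. The difference moved with level: in the lowest class of level the medians were 31.0% and 33.6%, and in the highest they were 13.99% and 11.04%. The order of the kinds thus turned between low and high levels.

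The intronless models with the highest levels followed the day 9 pattern. The highest was a model of 276 bases on the plus strand of scaffold25.0 (896005 to 896280), which ranked 4 among all models by mean FPKM. Its FPKM was 8299, 10129.5 and 7902 on day 0, 13540.4, 13111 and 14287 on day 3, 10049, 13242 and 8957 on day 6, 19219.6, 18899.7 and 17338 on day 9 and 4247, 4086 and 4056 on day 12. Day 9 lay above and day 12 below every other library. In the count test it was 1.2 ± 0.13 higher on the log2 scale (SE) at day 9 than at day 0 (adjusted p = 1.14e-05) and it fell by 2.23 ± 0.14 from day 9 to day 12 (adjusted p = 7.49e-08).

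The other 4 of the 5 highest models were a 921-base model on scaffold715.0 (5217 to 6137), a 519-base model on scaffold925.0 (76117 to 76635), a 453-base model on scaffold1016.0 (108956 to 109408) and a 288-base model on scaffold59.0 (130706 to 130993). The 453-base model had FPKM of 1753, 1679.8 and 1488 on day 0, 3547, 4100.4 and 3671 on day 9 and 1317, 1293 and 1169 on day 12, with no overlap between these days. All 5 were called higher at day 9 than at day 0 and at day 9 than at day 6, and lower at day 12 than at day 9. Of all models tested, 23%, 17.8% and 22.5% were called in these directions. Among tested intronless models in the highest of 4 equal classes of level, the shares were 47.7%, 36.6% and 42.8%. The 5 models are thus not read as apart from intronless models of like level. Against day 0, 2 of the 5 were lower at day 12, namely the 276-base and the 288-base models, beside 11% of all models. None was called higher.

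Single models with large changes were chosen by a rule. Among called intronless models with a mean level of at least 1 log2 CPM and no overlap between the libraries of day 0 and of the later day, the rule took the 5 strongest rises and the 5 strongest falls per later day. The rule could choose from 232 rises and 206 falls at day 3, 350 and 159 at day 6, 1345 and 744 at day 9 and 454 and 523 at day 12. These numbers give the size of the lists only, since no share of other models that pass the rule is given here. Of the intronless models called against day 0, 51.6%, 65.2%, 60.5% and 47.1% were higher at days 3, 6, 9 and 12. Of all models called, the shares were 47.7%, 55.4%, 46.3% and 51.5%. Identifiers are given for 2 rises and 2 falls, those that the rule took most often, where the larger absolute change broke ties, and the rest are given by position. Levels below are CPM.

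Pbr006526.1, an 825-base model on the minus strand of scaffold1333.0 (19798 to 20622), was high in the middle of the course. It stood at 0, 0.723 and 0.0684 CPM on day 0, 5.13, 10.4 and 41.0 on day 6, 3.06, 5.92 and 3.46 on day 9 and 0.131, 0.114 and 0 on day 12. Day 6 and day 9 lay above day 0 in all 3 libraries each, as the rule required. Day 6 replicate 3 lay far above the other libraries of its day, and day 12 overlapped day 0. The log2 change from day 0 was 6.12 ± 1.09 at day 6 (SE, adjusted p = 0.00473) and 3.93 ± 1.09 at day 9 (adjusted p = 0.00915), and it fell by 5.56 ± 1.29 from day 9 to day 12 (adjusted p = 0.00286).

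Pbr028746.1, a 570-base model on the minus strand of scaffold48.0 (541723 to 542292), had a like course. It stood at 0.380, 0.329 and 0.205 CPM on day 0, 2.76, 3.64 and 1.45 on day 3, 4.67, 6.74 and 35.5 on day 6 and 0.986, 1.14 and 0.611 on day 12. Its highest library was again day 6 replicate 3, and no later library overlapped day 0, which the rule required for days 3 and 6. The log2 change from day 0 was 5.64 ± 0.86 at day 6 (adjusted p = 0.00216). The day 3 call, with a log2 change of 3.06 ± 0.87 and an adjusted p of 0.0433, was lost without any 1 of the 6 libraries of days 0 and 3, where the adjusted p ran from 0.0550 to 0.128.

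All 10 models named at day 6 lost their call when only days 0 and 6 were fitted, with adjusted p from 0.0543 to 0.104 and the same directions. For Pbr006526.1 that fit gave an adjusted p of 0.0895 and for Pbr028746.1 0.0738. The models named at day 9 and day 12 kept direction and call in each alternative run on them.

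Pbr020130.1, a 1050-base model at 3744334 to 3745383 of scaffold3.0 (plus strand), was near 0 from day 9 on. It stood at 8.03, 15.4 and 17.6 CPM on day 0, 4.51, 0.606 and 1.17 on day 3, 0.0766, 1.92 and 0.406 on day 6, 0, 0.0897 and 0 on day 9 and 0, 0.114 and 0 on day 12. Every later library lay below all 3 of day 0, which the rule required for days 6, 9 and 12. The log2 change from day 0 was -8.68 ± 1.31 at day 9 (adjusted p = 0.000128) and -8.17 ± 1.2 at day 12 (adjusted p = 0.000313).

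Pbr012670.1, a 1614-base model on the plus strand of scaffold195.0 (62910 to 64523), was low from day 3 on. It stood at 5.44, 8.09 and 11.9 CPM on day 0, 0.661, 0.404 and 0.827 on day 3, 0.0746, 0 and 0.0653 on day 9 and 0.0657, 0.0571 and 0.111 on day 12. No later library reached 1 CPM, and the days did not overlap day 0, which the rule required for days 3, 6 and 9. The log2 change was -3.73 ± 0.64 at day 3 (adjusted p = 0.00501) and -7.19 ± 0.89 at day 9 (adjusted p = 2.62e-05). A 516-base model on scaffold6.0 (692851 to 693366) took a like course from a higher level, at 70.3, 129.8 and 183 CPM on day 0 and 9.49, 4.11 and 10.2 on day 3, a log2 change of -4.0 ± 0.48 (adjusted p = 0.00123).

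The 5 largest rises at day 12 went from at most 1.09 CPM in any day 0 library to at least 6.06 CPM in every day 12 library. A 1599-base model on the plus strand of scaffold939.0 (100443 to 102041) stood at 22.8, 19.0 and 17.8 CPM on day 12, while its 12 earlier libraries lay between 0 and 0.197. The log2 change from day 0 was 7.4 ± 0.52 (adjusted p = 8.50e-07). A 423-base model on the minus strand of scaffold946.0 (138898 to 139320) stood at 0, 0 and 0.0684 CPM on day 0 and 45.7, 43.0 and 37.4 on day 12, with day 6 replicate 3, at 12.9 CPM, the highest of the days between. The fifth rise was less even, with a 411-base model on scaffold369.0 (73315 to 73725) at 12.2, 7.54 and 6.06 CPM on day 12.

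An 816-base model on the minus strand of scaffold375.0 (87244 to 88059) was called higher on each later day. It stood at 0.506, 0.986 and 1.09 CPM on day 0, 10.3, 5.56 and 5.42 on day 9 and 58.2, 54.1 and 56.1 on day 12. Its log2 change from day 0 was 3.04 ± 0.44 at day 9 (adjusted p = 9.52e-05) and 6.02 ± 0.45 at day 12 (adjusted p = 1.37e-06).

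The 3 largest falls at day 12 were of models of 165 to 198 bases that differed widely within day 0, and the fourth was that of Pbr020130.1. Models of 165 and 198 bases, neighbours on the minus strand of scaffold250.0 (519706 to 519870 and 525218 to 525415), stood on day 0 at 33.5, 29.2 and 1.44 CPM and at 747, 595 and 48.1 CPM. A 171-base model on the plus strand of scaffold54.2 (91332 to 91502) stood at 171, 127 and 6.09 CPM. Day 0 replicate 3 was the lowest library of that day in all 3 models.

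On day 12 the 165-base model had no count in any library, which makes its pooled level (summed counts over summed library sizes) at least 368-fold lower than on day 0, with a floor of 3 counts over the 3 libraries. The 198-base model stood at 1.31, 1.60 and 1.22 CPM on day 12, a log2 change of -8.38 ± 1.57 (adjusted p = 0.00181). The 171-base model stood at 0.0657, 0.285 and 0.111 CPM, a log2 change of -9.26 ± 2.04 (adjusted p = 0.00535). The fifth fall, of a 231-base model on scaffold571.0 (163251 to 163481), went from 9.62, 21.96 and 5.54 CPM on day 0 to 0, 0.114 and 0.0556 CPM on day 12.

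**Figure D4:**
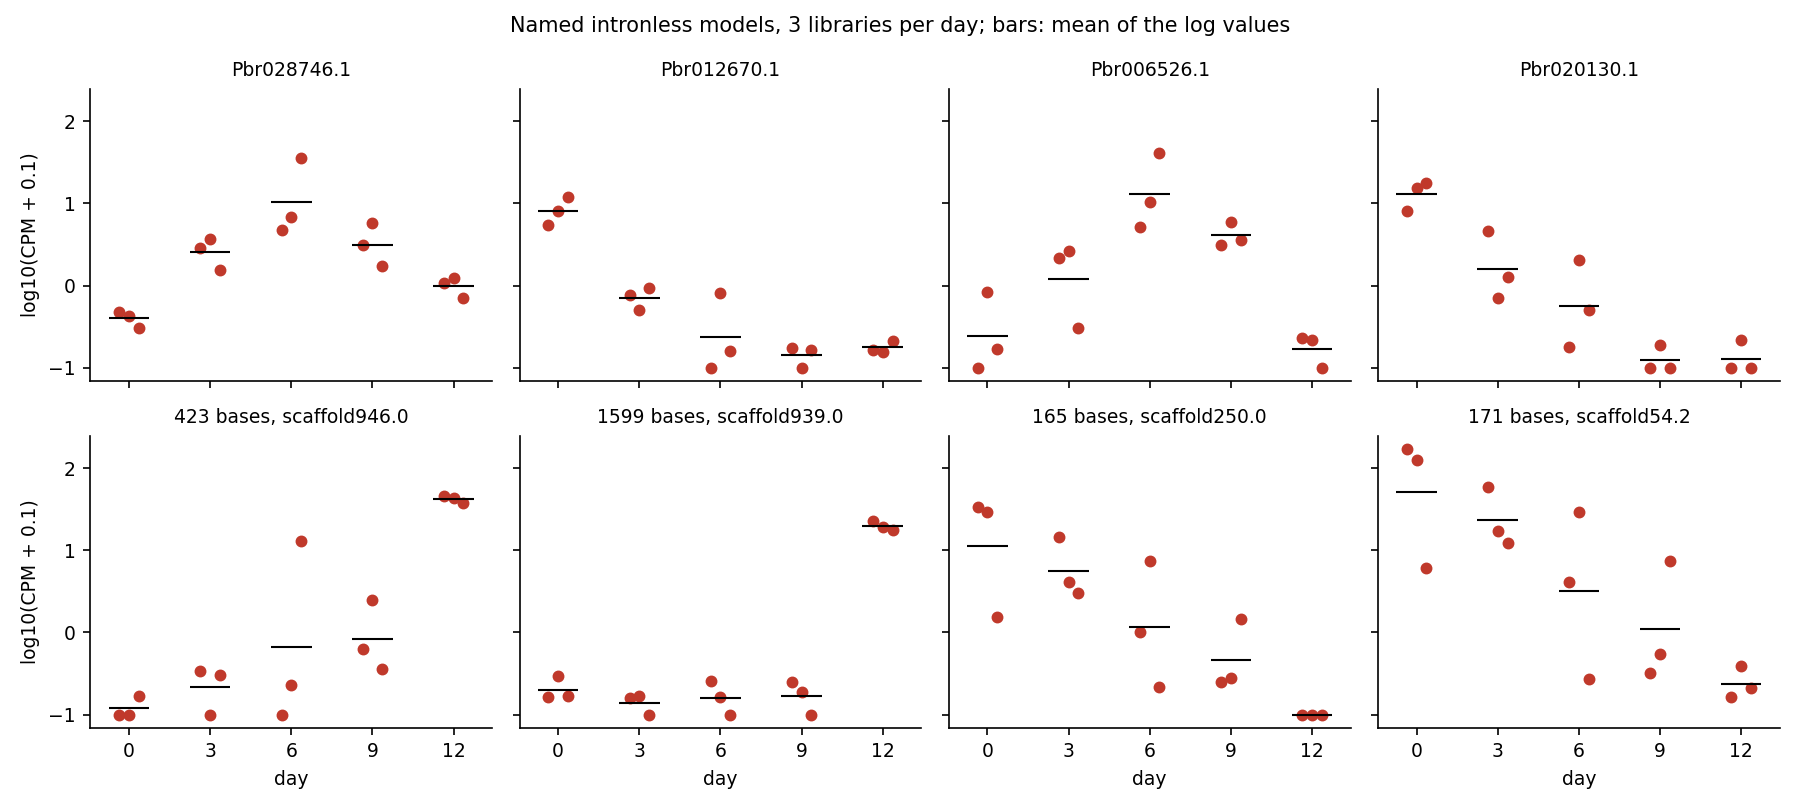
Level of 8 named intronless models by day, as log10 of CPM plus 0.1, with 1 point per library and a bar at the mean of 3 log values. The top row holds the named models with printed identifiers, and the bottom row the 2 largest rises and the 2 largest falls at day 12. The rises of the bottom row stand apart on day 12, while the falls spread widely on day 0.

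Few intronless models were silent on one day and clearly counted on another. Of the 12310 intronless models, 9 were at 0 in all 3 day 0 libraries and had 10 or more counts in every day 12 library. Another count, of models at 0 on day 9 with 10 or more in every day 12 library, was 14. Of the 30502 multi-block models, 32 and 31 met these rules. In the other direction 8 intronless models were at 0 on day 9 with 10 or more in every day 0 library, and 3 on day 12. Of the 30502 multi-block models, 20 and 11 did so. The kinds differ in size, so no difference between them is read from these counts. A 1614-base model on the minus strand of scaffold13.0 (765878 to 767491) had 0 counts on days 0, 3 and 9 and 96, 93 and 100 counts on day 12. Its pooled level on day 12 was at least 86.7-fold higher than on day 0, with the floor of 3 counts over the day 0 libraries.

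Intronless models often lay next to each other. The model after an intronless model was intronless in 37.1% of 11802 cases, and the model after a multi-block model in 25.4% of 29361 cases. Runs of at least 3 consecutive intronless models within 20000 bases of each other numbered 828 and held 3233 models, 26.3% of all intronless models, with at most 17 in a run. Of the models in runs 35.7% had no count in any library, against 28.3% of those outside. Without the models of recurring length orders described below, the share in runs was 31.8%.

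The longest runs were mostly silent. Of 18 runs with at least 10 models, 13 had no model that could be tested. A series of 16 coding lengths, from 2412 bases at one end to 2886 at the other and with the same order of strands, stood at 3 places, on scaffold165.2 (393930 to 467014), scaffold44.2 (180489 to 252732) and scaffold49.1 (567086 to 639375). All 48 models at these places had 0 counts in all libraries.

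Stretches of at least 5 consecutive lengths that recurred in another run covered 193 models in 20 runs on 14 scaffolds. Of these, 185 (95.9%) had no count in any library, and 1 could be tested. That model, of 1527 bases on the plus strand of scaffold98.0 (586198 to 587724), had 0, 55 and 0 counts on day 0, 13, 24 and 33 on day 9 and 0 in the other 9 libraries. All 193 models together took from 0 to 57 counts per library. Models of equal length at several places may hold reads that fit all of them, and the part of such reads in these zeros was not tested.

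Some runs held several models called in the same direction. A run of 8 models on scaffold979.0 (14361 to 64275), 6 of them 480 bases long, held 7 tested models. Their summed level was 538, 311 and 632 CPM on day 0, 612, 628 and 1295 on day 3, 913, 1064 and 918 on day 6, 567, 643 and 663 on day 9 and 361, 366 and 318 on day 12. Day 6 lay above day 0 and above day 12 without overlap. At day 6, 3 of its 7 tested models were higher than at day 0, and 2 without day 0 replicate 2, where 7.78% of tested intronless models of 300 to 600 bases were called higher. At day 12, 3 were lower than at day 9 with or without any 1 library, near the 38.01% of intronless models of that band called lower.

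At day 3, 4 models of the scaffold979.0 run were called higher, beside 4.52% of the band, and 3, 2 and 2 without day 0 replicates 1, 2 and 3. Without day 3 replicate 3, the library with the sum of 1295 CPM, 1 was called. Models that share a length within a run may be copies that share reads, and the equal lengths of 480 bases fall under that doubt.

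A run of 6 models on scaffold687.0 (74903 to 92636), of 198 to 1533 bases, was high on day 9. Its summed level was 44.8, 22.9 and 19.3 CPM on day 0, 29.2, 19.2 and 17.97 on day 6, 58.2, 118 and 47.6 on day 9 and 52.1, 25.6 and 19.5 on day 12. Day 9 lay above days 0, 3 and 6 but overlapped day 12. Of the 6, 5 were called higher at day 9 than at day 0, where 23% of all models tested were called higher and, among intronless models, from 39.2% at 300 to 600 bases to 19.3% at 1200 to 1800. Without day 9 replicate 2, the highest library, 2 were called, without day 0 replicate 2 also 2, without day 0 replicate 3 it was 3, and with the length trend removed it was 5.

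A run of 14 models on scaffold18.0 (369432 to 416441) held models of 198 to 306 bases, 10 of them tested. Its summed level was 78.3, 68.5 and 159.7 CPM on day 0, 42.2, 41.0 and 40.9 on day 3, 194, 43.2 and 130 on day 6, 162, 202 and 214 on day 9 and 99.5, 101 and 86.2 on day 12. Day 3 was low in all 3 libraries, and day 6 replicate 2 lay with day 3 rather than with its own day. Of the 10, 5 were lower at day 12 than at day 9, 2 with the length trend removed and 2 without day 12 replicate 2 or without day 12 replicate 3, while leaving out day 12 replicate 1, day 9 replicate 2 or day 9 replicate 3 left 3. The main count is near the 44.4% of tested intronless models of up to 300 bases called lower in that comparison. One model of 273 bases carried most of the sum, with 59.5, 52.8 and 119 CPM on day 0 and 129, 153 and 172 CPM on day 9, and its day 9 change was not called (log2 change 0.97, adjusted p = 0.0536).

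**Figure D5:**
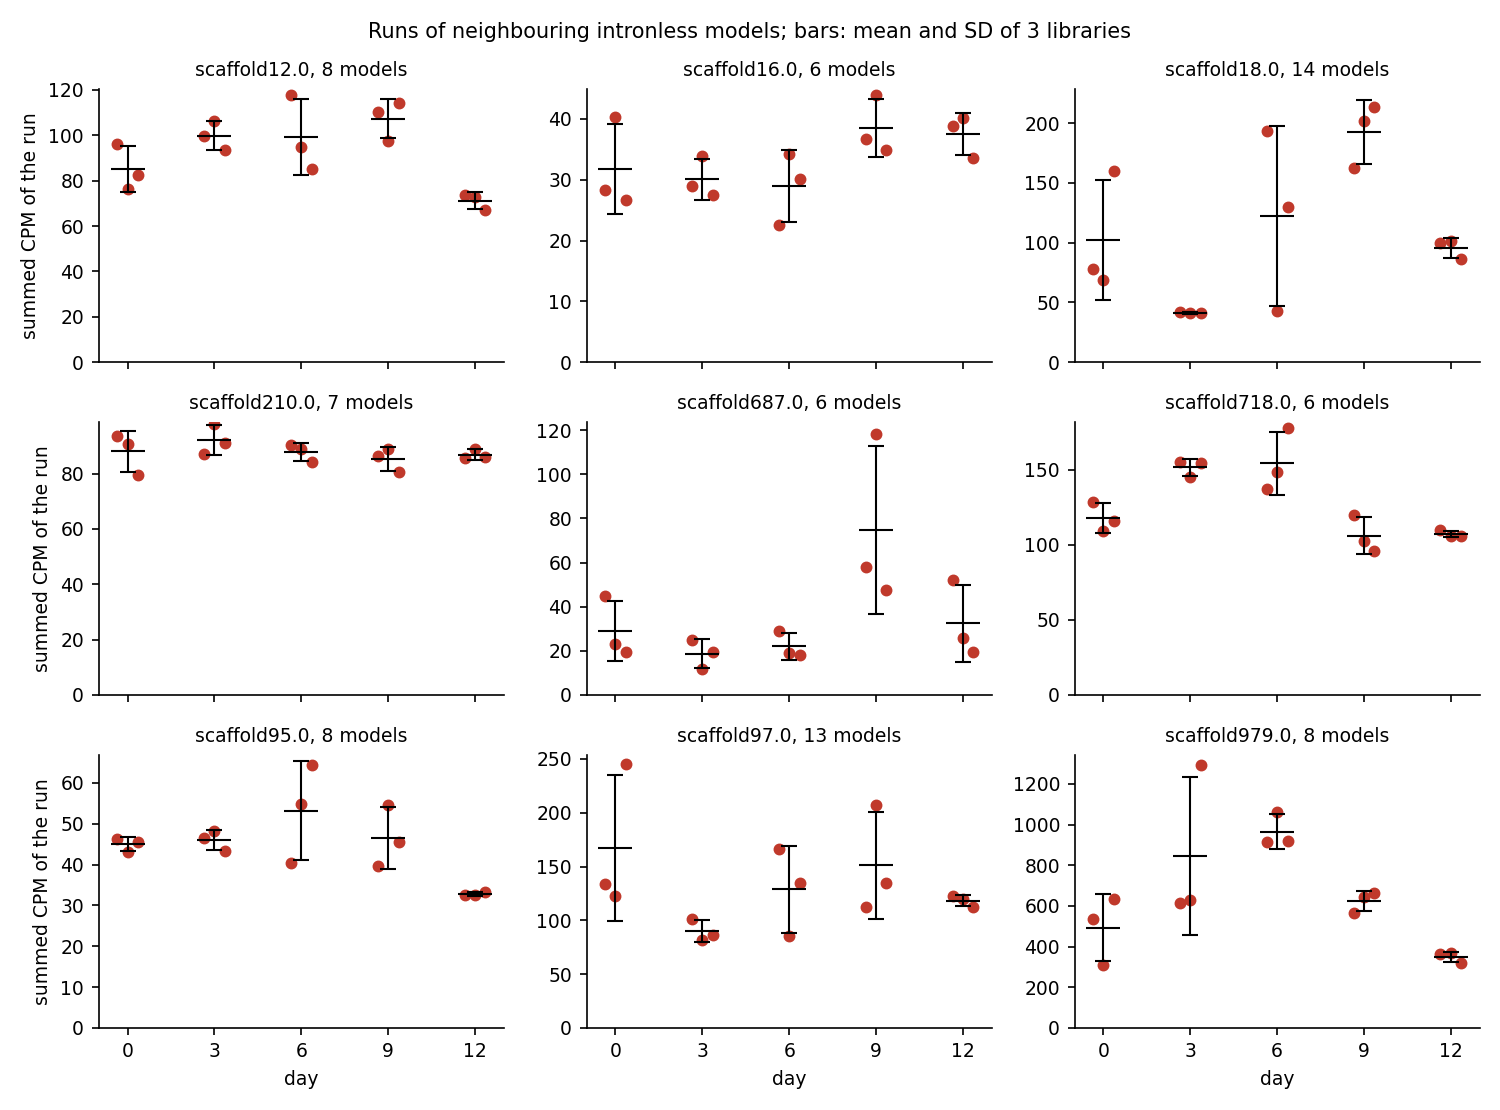
Summed CPM of the 9 runs of neighbouring intronless models with at least 6 tested models, by day. Points are libraries and bars are mean and SD of 3, each panel with its own axis from 0. The run on scaffold687.0 is highest on day 9, the run on scaffold979.0 on day 6, and the run on scaffold210.0 stays between 79.5 and 97.8 CPM.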

How the data were processed

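The authors deposited 1 table with the position, strand, length, read count and FPKM of each gene model in 15 libraries. The deposited counts are whole and not normalized, per the file headers. The FPKM columns are the authors' values per length and library total: recomputed from the counts they agreed within 1e-04 for 100% of Pbr values. The submitters' processing notes name HISAT, and the series' design text names the reference genome. The counter, its version, its use of strand and how it treated multi-placed reads were not given in the sources used here.

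Libraries were grouped by labelled day. Counts were tested with edgeR 4.0.16 in R 4.3.3 (filterByExpr by day, TMM, glmQLFit and glmQLFTest, day as the only factor, Benjamini-Hochberg, FDR under 0.05) in 6 comparisons. The test was checked on simulated data. CPM values are scaled by TMM, standard errors come from the fit, and floors cover counting error only. Alternatives were DESeq2 1.42.0, relative log expression factors, no filter, removal of the trend with length, a replicate block, fits of only the days compared, leaving out each library, and leaving out possible copies. Strata of level and repeats on runs were added after seeing the data. The members, length bands and lists were chosen with earlier results of these data known. Gene families and cell type markers planned by description were not used, since the identifiers carry no names. At most 2 identifiers per direction are printed, those the naming rule took most often, where the larger absolute change broke ties, and the scaffold runs described were chosen after their values were seen.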

Additional observations from a re-analysis of the deposited data

How the results depend on the processing

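Removing the length trend, relative log expression factors and leaving out possible copies kept each count of called intronless models within 1.5 times its main value and kept the direction of each median difference. DESeq2 moved the day 3 count from 523 to 821, and a fit of only days 0 and 6 moved that count from 647 to 5. Leaving out 1 library gave 185 to 473 calls at day 3, 284 to 1013 at day 6, 2235 to 2427 at day 9, 894 to 1107 at day 12, 1614 to 2098 for day 9 against day 6 and 2117 to 2378 for day 12 against day 9. The median difference between the kinds within length bands ran from 0.10 to 0.13 at day 9, from -0.0653 to -0.0495 at day 12 and from 0.0228 to 0.0818 for day 9 against day 6 under the same omissions. Without the filter on low counts it was 0.0157 at day 9, -0.0319 at day 12, -0.0305 for day 9 against day 6 and -0.0900 for day 12 against day 9; more models of low counts entered these medians. Within strata of length and level, added after seeing the data, it was 0.155 at day 9 and -0.0353 at day 12. As shares of the counts on Pbr models only, intronless models held 12.4% on day 0, 15.7% on day 9 and 12.3% on day 12. Among models with at least 1 count the median FPKM, from the shortest to the longest band, was 0.700, 1.196, 2.19, 2.95, 2.35, 2.03 and 1.45.

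In the median over all pairs of days, equal replicate numbers did not go with more alike libraries. Deviations from the day means had a median correlation of -0.00122 for equal numbers and 0.000371 for unequal ones. Pairs of days differed: equal numbers gave 0.133, 0.166 and 0.0914 for days 0 and 6, and 0.0239, -0.0804 and -0.0816 for days 6 and 9. Unequal numbers of days 0 and 6 gave -0.193 to 0.0572. With the replicate block the counts were 476, 581, 2587 and 1216 at days 3, 6, 9 and 12, 1906 for day 9 against day 6 and 2567 for day 12 against day 9, each within 1.5 times the main count. Among the single models named, no direction turned, 13 calls were lost in fits of all libraries or of only 2 days and 26 when 1 library was left out, at days 3 and 6 only. Lone or low counts limit the short models most, since 20.5% of intronless models of up to 300 bases could be tested.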

Other observations

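Some intronless models were without counts on day 9 alone among days on which they were otherwise counted. A 300-base model on the minus strand of scaffold752.0 (185949 to 186248) had 14, 11 and 19 counts on day 0, 14, 14 and 13 on day 3, 15, 10 and 10 on day 6, 0 in all 3 libraries on day 9 and 14, 22 and 34 on day 12. It was lower at day 9 than at day 0 (adjusted p = 5.15e-05, edgeR quasi-likelihood test) and higher at day 12 than at day 9 (adjusted p = 1.91e-05). Its pooled level (summed counts over summed library sizes) on day 9 was at least 12.8-fold lower than on day 0, with a floor of 3 counts over the 3 libraries. A 2247-base model on the minus strand of scaffold187.0 (588031 to 590277) had 25, 23 and 15 counts on day 0, 27, 17 and 20 on day 3, none on day 9 and 14, 10 and 18 on day 12, with adjusted p = 6.28e-06 at day 9 against day 0 and 1.64e-05 at day 12 against day 9. Its day 6 libraries did not all reach 10 counts. The edgeR quasi-likelihood test gave adjusted p = 0.0770 for day 6 against day 0 and 4.43e-05 for day 9 against day 6. The 300-base model is among the shortest intronless models, which were more often higher than lower on day 9. Both models were picked after their values were seen.

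A 531-base model on the minus strand of scaffold175.0 (379299 to 379829) had no count on day 6 or on day 9 and 116, 121 and 110 counts on day 12. It was not called at day 9 against day 0 (adjusted p = 0.201, edgeR quasi-likelihood test). Its pooled level was at least 90.9-fold higher on day 12 than on day 9 (adjusted p = 2.56e-05, edgeR quasi-likelihood test).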
